A study of Drosophila melanogaster with 2 samples.

Results

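The proteasome subunit genes of the fly were examined in chromatin immunoprecipitation followed by sequencing (ChIP-seq) of REPTOR, as protein-coding genes of the BDGP6 annotation whose symbol is Prosalpha, Prosbeta, Rpn or Rpt followed by a number. The rule found 48 of the 13945 protein-coding genes on the major arms. By symbol, 18 encoded the regulatory particle (Rpn and Rpt) and 14 the core particle (Prosalpha and Prosbeta), and 16 were copies. Of the copies, 14 had symbols ending in T, R, R1 or R2, the group named testis-type, and Prosalpha4T1 and Prosalpha4T2 were counted beside them. RefSeq described all 48 as proteasome subunits (25) or regulatory particle proteins (23), which fits the family name. It described only 4 of the 16 copies as testis-specific (Prosalpha3T, Prosalpha6T, Prosalpha4T1 and Prosalpha4T2) and the other 12 as related to a subunit, so the name testis-type is that of the rule.

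The series held 1 group with 2 biological replicates, numbered 1 and 3, of whole mixed-sex embryos aged 0 to 24 h. Per the labels, both replicates came from a single line, CG13624-GFP, whose stable transgene encoded REPTOR, the product of CG13624, fused at its C terminus to GFP. The immunoprecipitation used an antibody against GFP. Neither the promoter and copy number of the transgene nor the state of the resident REPTOR gene was given, and the control experiment named in the labels was not analysed here. Each sample pooled whole embryos, so no peak could be assigned to a tissue, and the later stages in which the male germline forms sperm were not sampled.

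The proteasome degrades proteins marked with ubiquitin. Its core particle is a barrel whose outer alpha rings gate the entrance and whose inner beta rings hold the proteolytic sites. The regulatory particle caps the barrel: its base holds the Rpt ATPases, which unfold substrates, and its lid removes ubiquitin. REPTOR is a bZIP transcription factor that becomes active when the growth kinase TORC1 is inhibited. In flies the bZIP factor Cnc with its partner Maf-S is known as an activator of proteasome genes, and several subunits have additional copies expressed in the male germline.

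The stretches of reference sequence below lie around the strongest REPTOR summits of 5 regulatory particle genes. Rpn5 is shown because it had the strongest peak of the family, and Rpn1, Rpn12, Rpt2 and Rpt6 because the core of the DNA replication-related element (DRE), the site of the promoter factor DREF, lay within 50 bp of their summits. The DRE core also lay that near to summits of Rpn3, Rpn13, Rpt5 and Prosbeta1, which are not printed. In all it was near 8 of the family's 20 summits, so the printed stretches, picked for it, do not show how common it was. Each stretch reads 5′ to 3′ on the strand of the gene, from dm6 sequence outside annotated exons and up to 75 bp to each side of the summit. Capitals mark matches to the DRE core, ATCGAT. They also mark TATAAA, the letters of a TATA box, at Rpn5 and Rpt2, whatever their distance from the start site. At Rpt2 and Rpt6 they further mark a FOXO site, read as GTAAACA on the other strand. The summit is base 76 of each stretch, and base 29 at Rpt2. The positions are chr3R:5789122-5789272 (plus strand), chr3L:19914899-19915049 (plus strand), chr3L:16582918-16583027 (plus strand), chr3R:23931559-23931638 (minus strand) and chrX:21315889-21316039 (plus strand).
Rpn5: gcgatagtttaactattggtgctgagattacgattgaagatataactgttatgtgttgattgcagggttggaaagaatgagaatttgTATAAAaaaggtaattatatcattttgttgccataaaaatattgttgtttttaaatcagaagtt
Rpn1: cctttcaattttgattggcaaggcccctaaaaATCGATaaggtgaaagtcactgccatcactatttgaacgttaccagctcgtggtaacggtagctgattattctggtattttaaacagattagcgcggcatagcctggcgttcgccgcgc
Rpn12: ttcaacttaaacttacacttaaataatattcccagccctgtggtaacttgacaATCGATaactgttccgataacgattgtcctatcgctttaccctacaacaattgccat
Rpt2: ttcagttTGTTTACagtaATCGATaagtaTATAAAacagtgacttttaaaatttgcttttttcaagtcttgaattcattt
Rpt6: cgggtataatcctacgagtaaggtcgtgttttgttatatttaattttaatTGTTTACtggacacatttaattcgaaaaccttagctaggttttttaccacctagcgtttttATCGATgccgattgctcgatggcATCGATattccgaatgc

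The regulatory particle and core particle genes differed in how often they had a REPTOR summit, and no copy had any. A gene was counted where a summit of the optimal peak list, the 5321 calls that the authors kept after comparing the replicates, lay within 1000 bp of any of its transcription start sites (TSSs). Of the 48 genes, 18 had such a promoter summit (37.5%), against 30.3% of all protein-coding genes. They were 14 of 18 regulatory particle genes (77.8%), 4 of 14 core particle genes (28.6%), and 0 of the 14 testis-type copies. Prosalpha4T1 and Prosalpha4T2 also had none. The core share was thus near that of all genes and the regulatory share above it. The difference between the classes was described by counts and not tested.

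**Figure D1:**
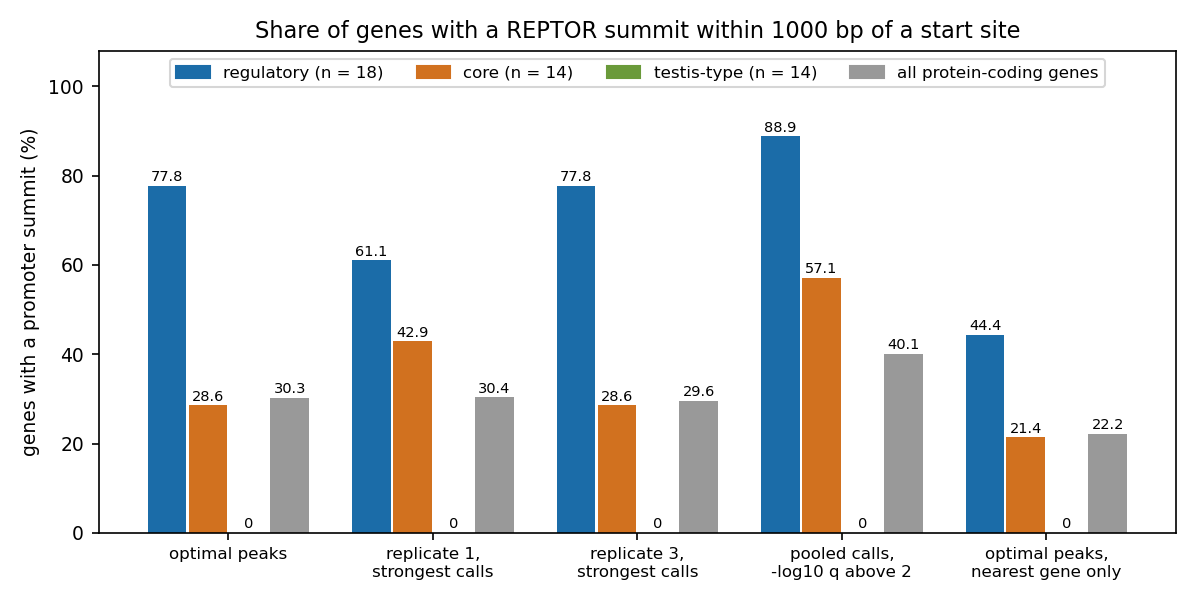
Share (%) of regulatory particle, core particle and testis-type genes and of all protein-coding genes with a REPTOR summit within 1000 bp of a start site, in 5 versions of the peak list. The regulatory bar is the highest in each version, from 44.4% to 88.9%, and the testis-type bar is at 0 in all 5.

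Within the regulatory particle, the Rpn genes were almost all counted. Of 12 Rpn genes 11 had a summit, against 3 of 6 Rpt genes. By position in the particle, 7 of the 8 lid genes with an Rpn symbol had a summit, and Rpn7 had none. Of the 9 base genes, 6 had a summit: the scaffold genes Rpn1 and Rpn2, the ubiquitin receptor gene Rpn13, and the ATPase genes Rpt2, Rpt5 and Rpt6. Rpn10, for a ubiquitin receptor that contacts both base and lid, also had one. In the core particle, 2 of 7 alpha genes (Prosalpha3 and Prosalpha7) and 2 of 7 beta genes (Prosbeta1 and Prosbeta5) had one. Among the 3 beta subunits with proteolytic sites, Prosbeta1 and Prosbeta5 had a summit and Prosbeta2 had none. All 4 of these core genes were on arm 2R, which held 6 of the 14 core genes and where 30.3% of all genes had a summit.

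Signal is the deposited strength of a call on the scale of the authors' caller, and ranks run from the strongest call of a list. The lid gene Rpn5 had the strongest peak of the family (3R, 5789058 to 5789247), with a pooled signal of 369.2 and rank 286 of 5321, so that 94.6% of optimal peaks were weaker. Its replicate signals were 173 (rank 352 of 30000) in replicate 1 and 190.3 (rank 280) in replicate 3. A second Rpn5 peak of 265.5 (5789316 to 5789435) lay closer to the start site, and in each replicate the same call overlapped both peaks. The next member, Rpn6, had 207.7, so Rpn5 led the family in the pooled list and also ranked first of the 18 in each replicate.

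The lid genes Rpn6 and Rpn3 followed. Rpn6, for a lid scaffold subunit (2R, 14752277 to 14752499), had a pooled signal of 207.7, with 121.6 (rank 771) in replicate 1 and 99.3 (rank 1199) in replicate 3. Rpn3 (2L, 19051766 to 19051887) had 203.5, with 108.9 (rank 969) in replicate 1 and 91.95 (rank 1401) in replicate 3. These 2 peaks, like those of Rpn5, were narrower than the common width that 15 of the 20 peaks at members shared with 74% of all optimal peaks. Further down the lid, Rpn11, which encodes the deubiquitinase (2L, 5059650 to 5060085), had 127.8, with 65.1 (rank 2534) in replicate 1 and 59.7 (rank 3078) in replicate 3. Rpn12 had 114.5, Rpn8, for the partner of Rpn11, had 94.8, and Rpn9 had 87.6, so the lid alone spanned the strongest and nearly the weakest of the family's peaks.

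Among the base genes, Rpt5 had the strongest peak (3R, 23752625 to 23753060), with a pooled signal of 166.6. Its replicate signals were 94.2 (rank 1284) in replicate 1 and 74.9 (rank 2071) in replicate 3. Rpn13 (2R, 13960271 to 13960506) had 147.6, with 81.7 (rank 1687) in replicate 1 and 66.4 (rank 2550) in replicate 3, and a second summit of 107. Both Rpn13 peaks overlapped each other, and in each replicate the same call overlapped both. Rpn2 (3R, 29153168 to 29153603) had 146.7, with 81.5 (rank 1702) in replicate 1 and 65.8 (rank 2592) in replicate 3. These genes ranked higher in replicate 1, as Rpn6 and Rpn3 did. Rpt2 had 120 in the pooled list, with 73.9 (rank 2029) in replicate 1 and 41.0 (rank 5539) in replicate 3. Rpt6 had 84.3, with 32.0 (rank 7141) in replicate 1 and 51.2 (rank 3931) in replicate 3. Rpt2 and Rpt6 thus departed in opposite directions between the replicates. The weaker peaks at Rpn10 (99.2) and Rpn1 (92.6) had replicate ranks of 4455 and 3762 at Rpn10 and 3471 and 5180 at Rpn1, for replicates 1 and 3 in that order.

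The core particle genes with a summit lay in a narrow range, from 122.3 to 167.2. Prosbeta1, for the caspase-like site (2R, 16014666 to 16015101), had a pooled signal of 167.2, with 92.9 (rank 1319) in replicate 1 and 73.3 (rank 2158) in replicate 3. Prosbeta5, for the chymotrypsin-like site (2R, 10819728 to 10820163), had 145.2, with 51.7 (rank 3648) in replicate 1 and 90 (rank 1462) in replicate 3. Prosalpha3 (2R, 20994659 to 20995094) had 130.1, with 59.4 (rank 2948) in replicate 1 and 70.8 (rank 2282) in replicate 3. Prosalpha7 had 122.3, with 70.9 (rank 2173) in replicate 1 and 59.5 (rank 3109) in replicate 3. Prosbeta5 had the most unequal replicates of the 4, higher in replicate 3. All 4 ranked among the first 5321 calls of each replicate.

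**Figure D2:**
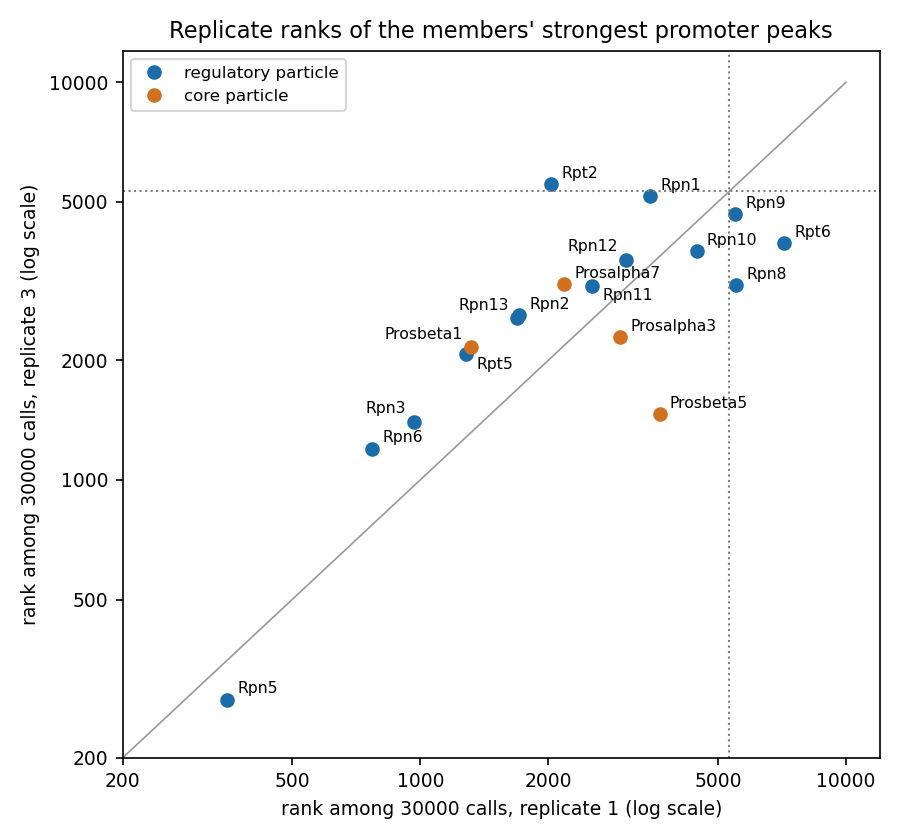
Rank of the call at each of the 18 members' strongest promoter peaks in replicate 1 (x axis) and replicate 3 (y axis), both log scales, with lower ranks stronger. The solid line marks equal ranks and dotted lines mark rank 5321. Rpn5 lies apart at the strong end, and Rpn8, Rpn9 and Rpt6 lie beyond the dotted line of replicate 1 and Rpt2 beyond that of replicate 3.

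Over the 18 genes the strongest promoter peak had a median signal of 128.9 (84.3 to 369.2), against 138.4 over all 4226 protein-coding genes with a promoter summit. The medians were 123.9 for the 14 regulatory genes and 137.6 for the 4 core genes, so regulatory genes were counted more often without a higher median among those counted. The replicate 1 signal over the replicate 3 signal had a median log2 ratio of 0.18 over these 18 peaks (SD 0.43 over peaks, from -0.80 at Prosbeta5 to 0.85 at Rpt2), against -0.04 over 5304 optimal peaks. None of the 18 differed by more than 2-fold between the replicates, but only 241 of the 5304 optimal peaks did. The count of 0 thus does not set these genes apart. Of the 18, 15 ranked among the first 5321 calls of replicate 1, 17 of replicate 3, and 14 of both. The share over all optimal peaks was not computed, and the optimal list was itself made by comparing these replicates. The counts thus do not show whether these genes were more or less reproducible than others.

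Counting directly in each replicate gave a smaller gap between the particles in replicate 1. In the 5321 strongest calls of replicate 1, 11 of 18 regulatory genes and 6 of 14 core genes had a promoter summit, against 30.4% of all protein-coding genes. Rpn8, Rpn9 and Rpt6 were missing there, and Prosalpha6 and Prosbeta3 were present. In replicate 3 the counts were 14 of 18 regulatory and 4 of 14 core genes, against 29.6% of all genes, with Rpt1 in place of Rpt2. No copy had a summit in either set.

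Most standard genes without an optimal summit had a weaker call. The optimal list ended at a pooled signal of 77.94. Prosalpha5 (77.6), Rpt4 (71.6) and Prosalpha2 (61.3) lay just below it, and Rpt6 (84.3), Rpn9 (87.6) and Rpn1 (92.6) just above. In the full list of 30000 pooled calls, background calls included, 17 of 18 regulatory genes and 13 of 14 core genes had a promoter summit, against 62.1% of all protein-coding genes. Restricted to pooled calls with a deposited −log10 q above 2, the counts were 16 and 8, against 40.1% of all genes. The genes added by that limit were Rpt3 (60.8), Rpt4, Prosalpha2, Prosalpha5, Prosalpha6 (59.1) and Prosbeta3 (56.5). With calls of any q, Prosbeta7 (51.0), Prosalpha4 (43.1), Prosbeta2 (37.7), Prosbeta6 (36.3), Prosbeta4 (33.1) and Rpn7 (28.4) also had a call. The median of the strongest promoter call was 106.8 over all 18 regulatory genes and 57.8 over all 14 core genes, with a gene lacking a call set to 0, against 36.5 over all protein-coding genes.

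**Figure D3:**
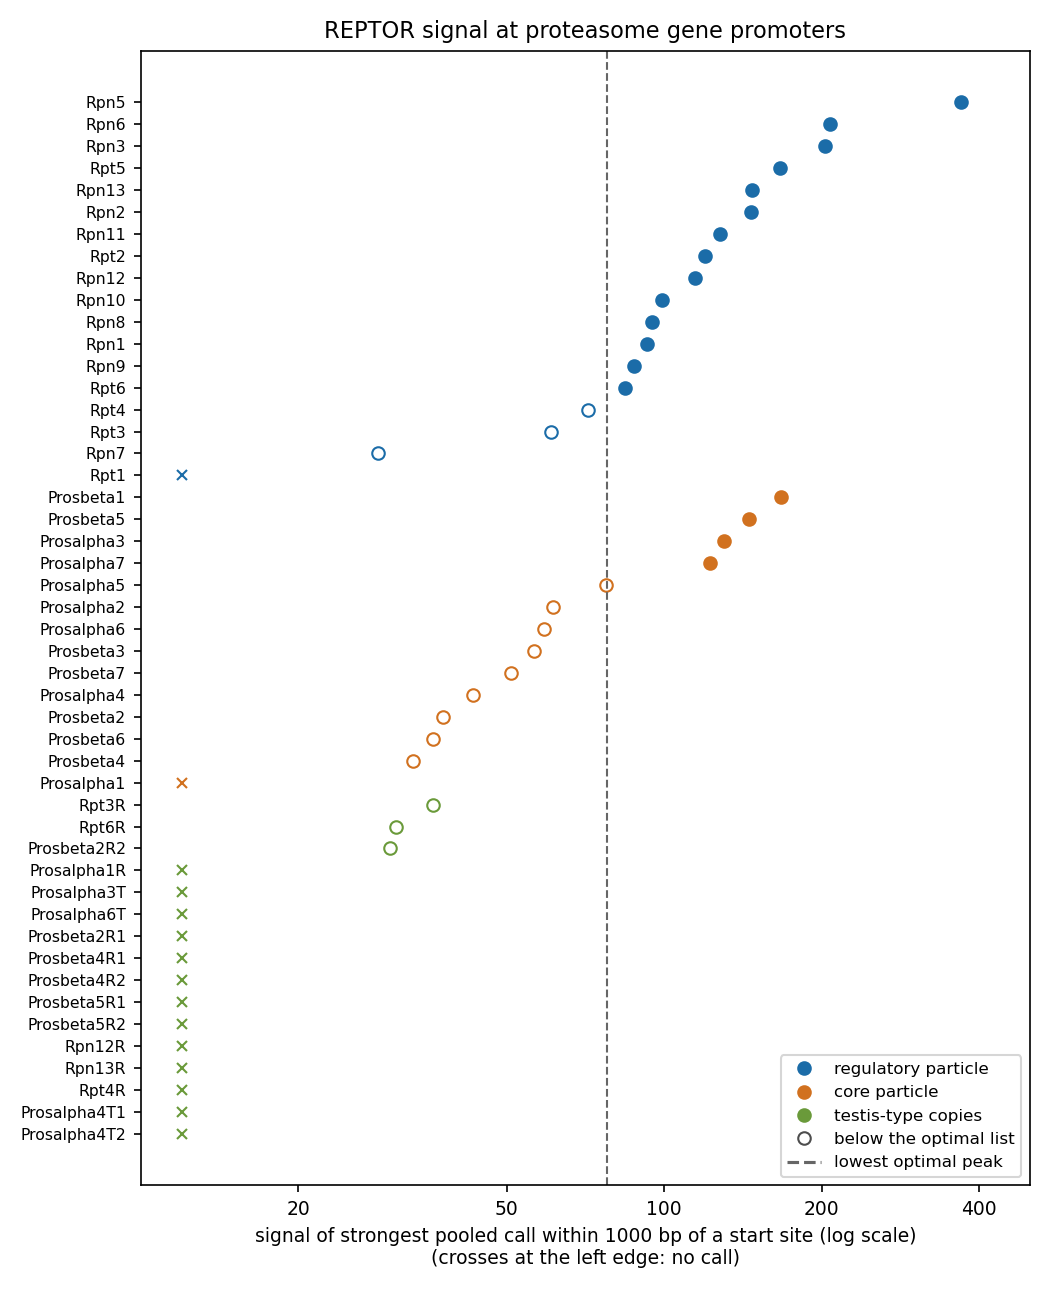
Signal of the strongest call on both replicates together within 1000 bp of a start site (x axis, log scale) for each of the 48 genes, grouped as regulatory particle, core particle and copies. Filled points are optimal peaks, open points lie below the lowest optimal signal of 77.94 (dashed line), and crosses at the left mark genes with no call. The copies have 3 open points, all under 37, and no filled point.

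Some replicate values behind the weaker calls were uneven. Prosalpha6 had 50.4 (rank 3772) in replicate 1 and 21.9 (rank 13867) in replicate 3. Prosbeta3 had 40.7 (rank 5123) in replicate 1 and no promoter call in replicate 3. Rpt1, for an ATPase of the base, went the other way, with 53.3 (rank 3684) in replicate 3 and no promoter call in replicate 1 or in the pooled list. Its nearest pooled summit was 1589 bp away, with a signal of 39.7. Each of these 3 genes was among the first 5321 calls of a single replicate, and the pooled list placed none of them among the optimal peaks.

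The copies had few calls of any strength. In the pooled list 3 of 16 had a promoter call: Rpt3R (36.1), Rpt6R (30.7) and Prosbeta2R2 (29.9), each with a deposited −log10 q under 1. A gene on the other strand started 19 bp from Rpt3R (Alg12) and 129 bp from Prosbeta2R2 (CG1116). The calls at Rpt3R and Prosbeta2R2 could thus not be given to the copy by distance alone. By replicate, Rpt6R had 23.3 in replicate 1 and 14.02 in replicate 3. Prosbeta2R2 had a call of 18.4 in replicate 1 alone, Prosalpha6T had 12.7 in replicate 1 alone, and Rpt3R had 24.9 in replicate 3 alone. These were weak calls in lists that include background. The remaining copies, Prosalpha1R, Prosalpha3T, Prosbeta2R1, Prosbeta4R1, Prosbeta4R2, Prosbeta5R1, Prosbeta5R2, Rpn12R, Rpn13R, Rpt4R, Prosalpha4T1 and Prosalpha4T2, had no promoter call in any of the lists.

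In the pooled list, copies lay below their counterparts wherever the counterpart had a call. Rpn13R had no pooled call and Rpn13 had 147.6, Rpn12R had none and Rpn12 had 114.5, and Rpt6R had 30.7 against 84.3 at Rpt6. Prosbeta5R1 and Prosbeta5R2 had none and Prosbeta5 had 145.2, and Prosalpha3T had none and Prosalpha3 had 130.1. Among counterparts with a call below the optimal list, Rpt3 had 60.8 against 36.1 at Rpt3R, and Prosbeta2 had 37.7 against 29.9 at Prosbeta2R2. The other copies of such counterparts had no pooled call. They were Rpt4R (71.6 at Rpt4), Prosalpha6T (59.1 at Prosalpha6), Prosalpha4T1 and Prosalpha4T2 (43.1 at Prosalpha4), Prosbeta2R1, and Prosbeta4R1 and Prosbeta4R2 (33.1 at Prosbeta4). No test was made of these pairs.

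Prosalpha1 and Prosalpha1R could not be assessed. Both lie on arm 2R within a repeated stretch: of the 36-base words within 500 bp of their start sites, 0.0% occurred once in the reference genome, and the same held for 50-base words. At the other 46 genes at least 90.3% of the 36-base words were unique. Prosalpha1 and Prosalpha1R had no promoter call in any list, and how the authors treated reads that match several places is not given in the sources used here. Without them the counts were 4 of 13 core genes (30.8%) and 0 of 13 testis-type copies.

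Summits at proteasome genes mostly lay just upstream of the nearest start site of the gene. The strongest summit was upstream in 17 of 18 genes (94.4%), against 79.2% of all genes with a promoter summit, and within 100 bp in 13 of 18 (72.2%), against 42.3%. The median position was -64.5 bp from the nearest TSS of the gene, against -95 bp for all genes. The 4 core summits lay at -97 bp (Prosbeta1), -32 bp (Prosbeta5 and Prosalpha7) and -23 bp (Prosalpha3). Rpn3 was the exception, with its summit 38 bp downstream of the nearest TSS, in its 5′ UTR. The summits of Rpn6 and Rpn9, in introns of these genes, of Rpn10, in its own 5′ UTR, and of Rpn8 also lay inside the annotated span of the gene, so they were upstream only of an internal TSS. The summits farthest from the nearest TSS were those of Rpn8 at -326 bp, in the 5′ UTR of Slik, and Rpn5 at -296 bp, in an intron of Hat1. The Rpn8 summit was lost when only the most upstream TSS of a gene was used.

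**Figure D4:**
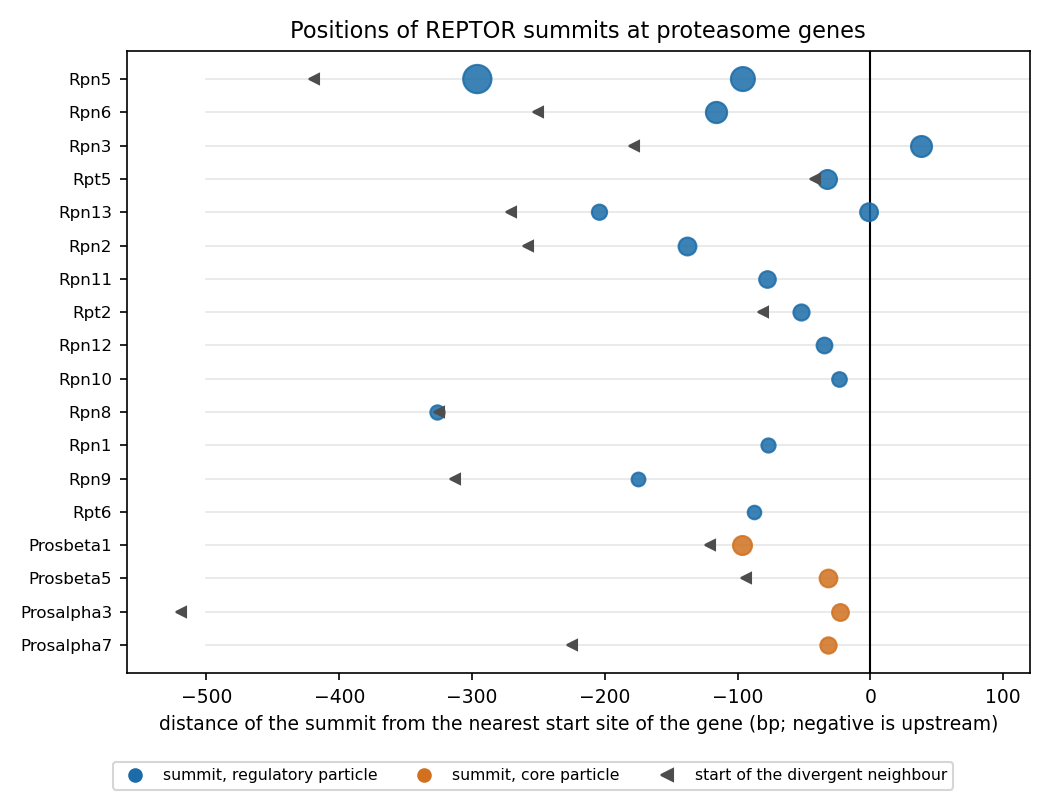
Distance (bp, negative upstream) of each of the 20 summits at 18 members from the nearest start site of the gene, with point area proportional to signal. Triangles mark the start of a neighbour on the other strand that shares the strongest peak, except qtc at Rpn11, which lies beyond the left edge. Of the 20 summits, only that of Rpn3 lies to the right of 0.

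Many of these peaks were shared with a neighbour that starts in the opposite direction. Another protein-coding TSS lay within 1000 bp of a start site at 12 of 18 regulatory genes, 10 of 14 core genes and 4 of 16 copies, against 42.9% of all protein-coding genes. In every one of these members the nearest such neighbour was on the other strand. Genes with such a neighbour had a summit more often in general, at 46.4%, against 18.2% of genes without. With a neighbour, 9 of 12 regulatory genes, 4 of 10 core genes and 0 of 4 copies had a summit. Without a neighbour, the counts were 5 of 6 regulatory genes, 0 of 4 core genes and 0 of 12 copies. The regulatory share was thus above that of all genes in both settings.

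Of the 18 strongest peaks, 14 were within 1000 bp of the start of another gene (77.8%, against 62.3% of all genes with a promoter summit). At 7 genes that neighbour was the nearer, among them Hat1 at Rpn5, RanBP3 at Rpt5, Slbp, for the histone mRNA stem-loop binding protein, at Rpn2, CG13599 at Rpt2, Slik, a kinase gene, at Rpn8, and Rrp42, an exosome subunit gene, at Prosbeta1. When a summit counted only for the gene with the closest start site, 8 of 18 regulatory and 3 of 14 core genes remained, against 22.2% of all genes. Some of these distances differed little: the Rpt5 summit was 33 bp from Rpt5 and 9 bp from RanBP3, and the Rpn2 summit was 138 bp from Rpn2 and 120 bp from Slbp. The other shared peaks were nearer to the proteasome gene, with ave at Rpn6, l(2)37Bb at Rpn3, CtsL1 at Rpn13, dgo at Prosbeta5, dgt3 at Prosalpha3, CG1671 at Prosalpha7 and qtc, 947 bp from the summit, at Rpn11. At Rpn1, Rpn10, Rpn12 and Rpt6 no other protein-coding gene started within 1000 bp of the summit.

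The letters of the DRE were common in these promoters. TATCGATA, the DRE, occurred on either strand from 250 bp before to 50 bp after the most upstream TSS in 6 of 18 regulatory genes, 6 of 14 core genes and 0 of 16 copies, against 9.36% of all protein-coding promoters and 15.7% of those with a REPTOR summit. It was present at 7 of the 18 genes with a summit and at 5 of the 14 standard genes without, but from 100 bp before to 100 bp after the TSS at 4 of 18 and 5 of 14, so these counts do not separate the genes with a summit. The regulatory genes were Rpn3, Rpn7, Rpn9, Rpn12, Rpn13 and Rpt5, and the core genes Prosalpha3, Prosalpha5, Prosalpha6, Prosbeta1, Prosbeta2 and Prosbeta6. Within 50 bp of the 20 summits it occurred at 4 (Rpn3, Rpn13, Rpt5 and Prosbeta1), against 3.55% of all optimal summits. Its core ATCGAT, which every DRE contains, was near 8 of the 20, adding Rpn1, Rpn12, Rpt2 and Rpt6, whose sequences are printed above, against 9.34%. The shares over all optimal summits, here and below, include summits away from start sites, whereas the 20 all lie within 1000 bp of one. They are therefore not a matched background, and no share over promoter summits alone was computed. In the promoters the DRE core was at 11 of 18 regulatory genes, 6 of 14 core genes and 1 of 16 copies (Prosbeta2R1). The shares were 23.3% of all protein-coding promoters and 32.8% of those with a REPTOR summit. The DRE core was at 11 of the 18 genes with a summit and at 6 of the 14 standard genes without. From 100 bp before to 100 bp after the TSS it was at 8 of 18 and 7 of 14, so its counts do not separate them either.

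Sites of bZIP factors were searched near the same summits. Neither the CRE palindrome TGACGTCA, nor its part TGACGT, nor the antioxidant response element TGACNNNGC, the type of site bound by Cnc with Maf-S, occurred within 50 bp of any of the 20 summits. These letters were at 0.226%, 2.31% and 2.91% of all optimal summits in that order, so the counts of 0 in 20 windows are near the background and are not a result about these genes. In the promoters, the antioxidant response element was at 3 of 18 regulatory genes (Rpn1, Rpn7 and Rpt6), 2 of 14 core genes (Prosalpha2 and Prosbeta3) and 1 copy (Prosbeta4R2), against 8.63% of all promoters. The letters GGTCACACT of Motif 1, which M1BP binds at many fly promoters, were at Rpn1, Rpn7, Prosalpha2, Prosalpha4 and Prosbeta3, against 6.05% of all promoters, and Rpn1 was the only one of these 5 with a summit. The FOXO site GTAAACA was near 2 of the 20 summits, those of Rpt2 and Rpt6, against 3.76% of all summits. In the promoters it was at 6 of 48 members, against 9.19% of all, so it does not set the family apart. The E-box CACGTG was in 0 of the 48 promoters, against 4.2% of all, and the heat shock element in 0 of 48, against 0.43%, both too rare for a count of 0 to set the family apart. The TATA box letters TATAAA were in 18 of 48, against 45.8% of all, and near 6 of the 20 summits, against 14% of all optimal summits. GC content had a median of 33.7% in regulatory, 32.5% in core and 33.7% in testis-type promoters, and 30.5% at Prosalpha4T1 and Prosalpha4T2, against 38.0% over all protein-coding promoters.

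Genes that assemble, regulate or serve the proteasome were read in the same way. Of 22 such genes, 14 had a promoter summit (63.6%), against the 30.3% of all protein-coding genes. The strongest were at the polyubiquitin gene Ubi-p5E (347.3, ranks 513 and 248 in replicates 1 and 3), at Keap1, for the inhibitor of Cnc (311.9, ranks 437 and 511), and at Ufd1, for a cofactor of the unfoldase TER94 (160.6, ranks 2176 and 1398). TER94 itself (159.3), its cofactor gene p47 (157.7) and Uch-L5, for a deubiquitinase that binds Rpn13 (152), came next. Among the subunit genes only Rpn5 exceeded Ubi-p5E and Keap1. The strongest Keap1 summit, at -893 bp from its TSS, was also within 1000 bp of the start of kuk. Those of Ufd1 and Uch-L5 were shared in the same way, with NaPi-III and Jarid2.

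At the activator gene cnc there were 6 summits over all of its start sites, led by a signal of 143.8 (ranks 2130 and 2076 in replicates 1 and 3). The number of summits was not set against the number of start sites of a gene, so it is not comparable between genes. The partner gene maf-S had 1 summit of 91.3, shared with rig and CG11110. Pngl, for a peptide N-glycanase (148), Txl, for a thioredoxin-like protein (148.1), Ubi-p63E (135.6), Ubqn, for a ubiquilin shuttle (134.9), rngo (109.8) and Pomp, for the assembly factor of the core particle (108.8), also had summits. The strongest summits of Txl, Ubi-p63E, Ubqn and rngo were shared, with CG10576, Sc2, dome and Cdc50 in that order. No summit was found at PI31, REG, Usp14, Uch-L5R, Sem1, which encodes the smallest lid subunit, Rad23, Npl4 or Uba1, for the ubiquitin-activating enzyme.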

How the data were processed

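ChIP-seq peak lists were used as deposited by the authors, in 4 dm6 files: a list for each of 2 replicates, a list on both together, and the optimal list, cut by the irreproducible discovery rate. Per the notes deposited with the files, replicate and joint calls used a control file. The aligner, peak caller, versions and read depth were not given in the sources used here, so precision rests on the replicate ranks alone. The authors' peak signal (scale not stated) was used to rank calls within a list. The −log10 q deposited by the authors was saturated, with 4854 of 5321 optimal peaks at the highest value. Lists on dm3 were not used.

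Start sites came from Ensembl release 115 and sequences from the RefSeq Release 6 assembly, on which the largest peak end of each arm lay inside the reference. Summits were assigned to genes in Python 3.11.15 (pandas 2.3.3, numpy 2.4.6), and the assignment was checked on constructed input with known answers. Replicate calls at a peak were the strongest overlapping by at least 1 bp. Motifs were searched on both strands. The members, classes and lists were chosen with earlier results of these data known. With 1 group and 2 replicates no test was made, and values are descriptions. All members could be named, with full values for the 10 strongest. Of 23 related genes, 22 matched a symbol (Ufd1-like through a synonym, Ube3c not). The alternatives changed the window, the assignment, the peak list, the replicate and the start sites. A planned comparison of protein sequences was not made. The name of 1 neighbouring gene is not reported here.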

Additional observations from a re-analysis of the deposited data

How the results depend on the processing

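Of 82 values under an alternative, 73 stayed within 1.5 times the count given, or, for the median signal, within the mean replicate spread of 0.25 (log2). The 73 include counts that could not change, such as those without Prosalpha1 and Prosalpha1R, which had no call. They also include counts of 0 that stayed at 0, and core counts of 6 in place of 4, at the limit itself. The tally is therefore not a measure of how stable the results are. When a summit counted only for the closest gene, 11 members had a summit, 8 of them regulatory. In the stronger part of the peak list, cut at its median, the counts were 10 members, 7 regulatory genes and 2443 of all protein-coding genes (17.5%), and the members' median signal was 157.1, since only stronger peaks remained. With pooled calls of −log10 q above 2, 8 core genes had a summit. From 100 bp before to 100 bp after the TSS, FOXO sites were at 2 of 48 members in place of 6, against 6.58% in place of 9.19% of all promoters. The E-box was at 1 in place of 0, against 2.88% of all promoters. These counts are near the shares over all promoters and are not a result about these genes. The DRE was at 4 in place of 7 of the 18 genes with a summit.

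Leaving out a replicate gave 17 to 18 members, 11 to 14 regulatory genes, 4 to 6 core genes, 14 to 16 related genes and 4126 to 4236 of all genes, with 0 testis-type copies. With a 2000 bp window Prosalpha4 and Prosbeta6 were added (6 of 14 core genes, 42.9%, near the 35.3% of all protein-coding genes at that window), and a peak touching the window added Prosbeta6. The copies had 0 summits under every alternative run. The counts without Prosalpha1 and Prosalpha1R and the median for the most upstream TSS (130.1) were chosen after seeing the data. A replicate call covering 50% of the peak left the ranks of all 18 members as given. No paired analysis was possible because the series has a single group. Read depth is unknown, so a missing summit is not shown to be an absence of binding.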
